A study of Mus musculus with 2 samples.

Results

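Genes of the lysosome were described across the cell classes of mouse muscle with and without injury. The set holds 37 genes, matched by symbol among the 28625 symbols of the count tables. They comprise 11 proteases, 5 glycosidases, 6 genes of lipid handling, 6 membrane proteins, 6 subunits of the proton pump and 3 transcription factors, and all 37 symbols were found. The data were 2 droplet single-cell 3' RNA libraries made from a lower-leg muscle, the tibialis anterior, of C57B/6 mice of 12 weeks on standard chow. One library came from uninjured muscle and the other from muscle injected with 1.2% barium chloride, which makes muscle fibres degenerate, and taken 24 hours later. The labels name the injection for both samples, and they leave unsaid whether the uninjured muscle was injected with anything. The number of mice behind each library is not stated either.

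Lysosomes are acidic compartments in which proteins, sugars, lipids and nucleic acids taken up by the cell or delivered by autophagy are broken down. The vacuolar proton pump (V-ATPase) keeps them acidic, cathepsins and other hydrolases do the breakdown, and heavily glycosylated membrane proteins line them. TFEB and its relatives MITF and TFEC are basic helix-loop-helix transcription factors that bind E-boxes. Many lysosomal genes carry an E-box inside a longer palindrome, the CLEAR element. Macrophages take up dead cells and debris and are rich in lysosomes, and they enter muscle in the days after injury.

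The promoter sequences of the members were searched for that element, because it links the transcription factors of the set to the enzymes. RefSeq promoters of the GRCm38.p6 assembly, each 300 bases long (250 before the start and 50 after it), were available for 29 of the 37 members, with 38 promoters in all. The 6-letter E-box CACGTG was found in 9 of the 38 (23.7%) and in 2349 of all 32851 promoters (7.15%). The 8-letter core TCACGTGA, which contains the E-box, was found in 5 of the 38 (13.2%), those of Ctsa, Ctsd, Gla, Mcoln1 and Atp6v1a, and in 320 of all promoters (0.974%). Both motifs are their own reverse complement, so 1 search covers both strands. A match describes these letters only and does not show that a factor binds there. The 4 promoters whose core lies closest to the start are printed 5′ to 3′ along the gene, with the core in capitals. They belong to a carboxypeptidase that also protects glycosidases (Ctsa, chr2:164833523-164833822, plus strand), a calcium channel of the lysosome membrane (Mcoln1, chr8:3500269-3500568, plus strand), an aspartic protease (Ctsd, chr7:142387778-142388077, minus strand) and a V-ATPase subunit (Atp6v1a, chr16:44139210-44139509, minus strand).
Ctsa: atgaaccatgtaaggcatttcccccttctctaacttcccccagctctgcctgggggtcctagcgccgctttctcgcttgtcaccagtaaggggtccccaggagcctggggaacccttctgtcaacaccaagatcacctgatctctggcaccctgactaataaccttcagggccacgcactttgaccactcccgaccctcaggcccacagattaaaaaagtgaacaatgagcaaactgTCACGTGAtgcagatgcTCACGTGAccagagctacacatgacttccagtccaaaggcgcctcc
Mcoln1: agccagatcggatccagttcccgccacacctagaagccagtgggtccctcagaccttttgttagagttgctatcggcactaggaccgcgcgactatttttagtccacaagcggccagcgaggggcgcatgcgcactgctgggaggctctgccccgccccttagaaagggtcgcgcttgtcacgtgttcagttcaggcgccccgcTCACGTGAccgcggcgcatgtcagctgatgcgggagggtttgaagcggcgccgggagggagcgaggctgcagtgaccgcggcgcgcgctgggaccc
Ctsd: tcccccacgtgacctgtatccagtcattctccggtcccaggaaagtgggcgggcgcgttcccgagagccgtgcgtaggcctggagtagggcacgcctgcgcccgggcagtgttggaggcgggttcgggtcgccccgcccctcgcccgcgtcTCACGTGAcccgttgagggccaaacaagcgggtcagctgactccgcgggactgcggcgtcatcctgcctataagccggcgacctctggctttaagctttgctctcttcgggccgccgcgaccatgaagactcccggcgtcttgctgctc
Atp6v1a: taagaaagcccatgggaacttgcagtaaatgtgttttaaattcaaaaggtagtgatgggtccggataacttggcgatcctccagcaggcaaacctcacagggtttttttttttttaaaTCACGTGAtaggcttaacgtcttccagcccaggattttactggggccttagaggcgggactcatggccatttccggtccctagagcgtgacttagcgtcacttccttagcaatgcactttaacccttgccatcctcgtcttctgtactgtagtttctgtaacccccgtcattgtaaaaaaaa

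Each transcript molecule carried a unique molecular identifier (UMI). The uninjured and injured libraries held 22994502 and 39014762 UMIs in 5581 and 4489 barcodes, of which 5139 and 4260 were kept, and 33 barcodes occurred in both. Median depth per barcode was 3237 and 7282 UMIs. Xist had 16575 uninjured and 0 injured UMIs, and 4 Y-linked genes had 0 and 4456. This is the pattern of a female and a male source, so injury and sex cannot be told apart in any difference below. Among the members, Gla and Lamp2 lie on the X chromosome. Muscle fibre-like cells numbered only 14 and 5, and the classes compared are those around the fibres. Classes were named per cluster from fixed marker lists, and clusters with many markers of another lineage stayed out. Myeloid classes counted as 1 lineage, and so did endothelial and stromal ones, so markers could be shared within it. Levels are UMIs of a gene per 1000000 UMIs of a class in a library (CPM). These are 3' counts, in which each UMI stands for 1 molecule whatever the gene's length. Uninjured tenocyte-like cells had 29317 CPM of tenocyte markers and 52760 CPM of fibro-adipogenic progenitor markers, which are also stromal. Injured neutrophil-like cells had 13373 CPM of their own markers and 15048 CPM of monocyte and macrophage markers. With 1 library per condition no difference had a replicate check and no test was possible. Every interval is a 95% interval and covers counting error only, and the threshold for calling a gene higher or lower was a 2-fold size, for genes with at least 20 UMIs over both libraries. In pooled counts of a class, fewer cells with a transcript and less of it per cell cannot be told apart.

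The 37 members made up more of the RNA of monocyte and macrophage-like cells after injury and less of the RNA of fibro-adipogenic progenitor-like and tenocyte-like cells. In monocyte and macrophage-like cells they were 1.34% (1.31 to 1.37) of all UMIs in 133 uninjured cells and 2.16% (2.15 to 2.16) in 2622 injured cells. In fibro-adipogenic progenitor-like cells, the mesenchymal cells between fibres, the share was 0.582% (0.574 to 0.590) in 797 and 0.263% (0.259 to 0.267) in 418 cells. In tenocyte-like cells, which make tendon matrix, it was 0.696% (0.685 to 0.706) in 446 and 0.390% (0.381 to 0.398) in 165 cells. Endothelial-like cells had 0.379% (0.375 to 0.383) in 2666 and 0.326% (0.321 to 0.332) in 456 cells. Medians over single cells differed in the same direction in these 4 classes, for example 1.30% and 1.88% in monocyte and macrophage-like cells.

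Glial-like cells went the other way by the median cell. Their pooled share was 0.383% in 250 uninjured and 0.497% in 52 injured cells, while the median cell had 0.357% and 0.270%. Of 14 macrophage-only genes, 8 were detected in the uninjured and 14 in the injured glial-like cells, and they summed to 4235 and 2922 CPM. In the uninjured glial-like cells Ctss had 4.20 CPM and Ctsc 67.3 CPM, against 1340 and 836 CPM in uninjured monocyte and macrophage-like cells. Of the 14 markers that named the latter class, 5 were detected in uninjured glial-like cells, at 4229 CPM together. Whether the 4235 CPM stand for macrophage RNA was not tested. The neutrophil-like cluster, 80 injured cells, had 1.68% (1.64 to 1.71) and the dendritic-like cluster, 103 injured cells, 0.777% (0.759 to 0.796). The same 14 macrophage-only genes summed to 22583 CPM in the neutrophil-like cluster, close to the 27550 CPM of injured monocyte and macrophage-like cells, and to 7412 CPM in the dendritic-like one. Their part in the shares was not tested. The lowest share, 0.197% (0.188 to 0.206), was that of uninjured satellite cell-like cells.

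**Figure D1:**
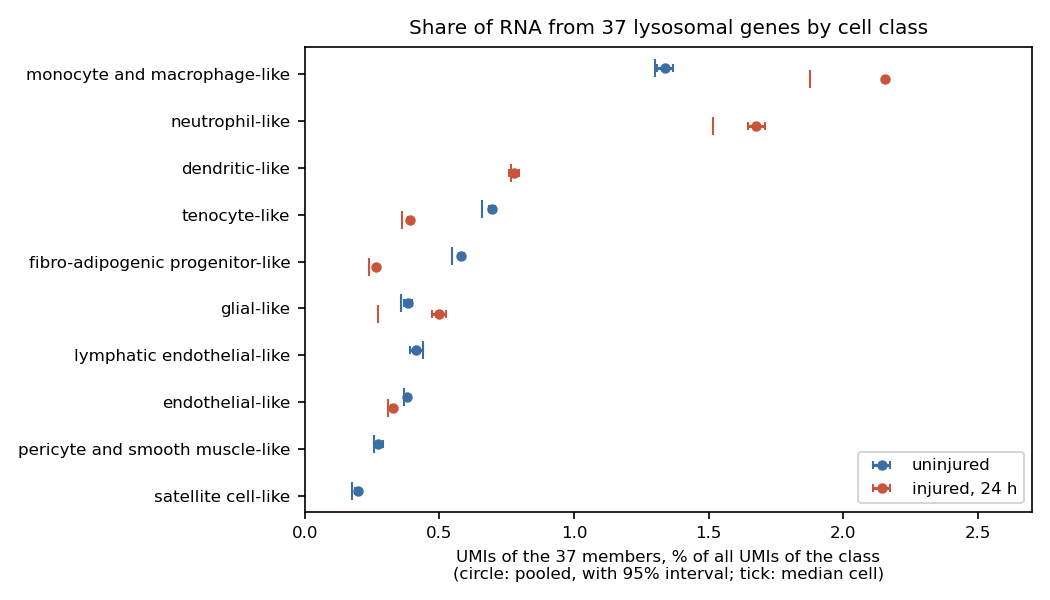
Share of all UMIs that came from the 37 lysosomal genes (x axis, percent) in each cell class (y axis) with at least 50 cells in a library, uninjured in blue and injured in red. Circles are pooled shares with exact 95% intervals and ticks are medians over cells; monocyte and macrophage-like cells lay highest, at 1.34% and 2.16%.

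In monocyte and macrophage-like cells the proteases made up most of the difference in share. Proteases were 0.622% of UMIs in the uninjured and 1.40% in the injured cells, and V-ATPase subunits 0.0262% and 0.0537%. Genes of lipid handling were 0.433% and 0.446%, membrane proteins 0.186% and 0.192% and glycosidases 0.0653% and 0.0583%. As a part of the members' own UMIs, proteases went from 46.5% to 64.8%. The aspartic protease cathepsin D went from 2.92% to 13.9% of them and prosaposin, Psap, the precursor of the saposins that help sphingolipid hydrolases, from 19.0% to 11.4%. All 37 members had at least 20 UMIs. Of these, 10 were at least 2-fold higher (8.48% of the 10240 genes measured in the class were) and 2 at least 2-fold lower (24% of all genes were). The members' median log2 ratio of injured over uninjured was 0.40, against -0.18 over all genes measured. Relative to that median of all genes, 14 were higher and 0 lower. With each cell assigned by its own markers, which left 71 uninjured and 2338 injured cells, the median was -0.0014, with 8 higher and 5 lower. Here and below, no share of all genes is given for counts relative to the median of all genes or in another setting. Such counts therefore stand without a background.

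Cathepsin D (Ctsd, ENSMUSG00000007891, mm10 chromosome 7, 142375911 to 142388038) had 391 CPM in the uninjured and 2990 CPM in the injured cells, 7.65-fold higher (6.70 to 8.79). Its promoter is among those printed above. Cathepsin L (Ctsl, ENSMUSG00000021477, chromosome 13, 64359337 to 64370890), a cysteine protease, had 181 and 1261 CPM, 6.97-fold higher (5.73 to 8.57). Legumain (Lgmn, ENSMUSG00000021190, chromosome 12, 102394084 to 102439813), which cuts after asparagine and processes cathepsins, had 539 and 1822 CPM, 3.38-fold higher (3.02 to 3.80). Cathepsin B (Ctsb, ENSMUSG00000021939, chromosome 14, 63122462 to 63145923) had 1566 and 3666 CPM, 2.34-fold higher (2.19 to 2.51). It was the member with the highest level in these injured cells. These 4 proteases were high in the injured library in every scaling tried, and Ctsb came under 2-fold in 2 other settings, with log2 ratios of 0.65 with cells assigned by their own markers and 0.92 with cells thinned to 1000 UMIs.

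The other proteases were not called. Cathepsin Z, a carboxypeptidase, had 467 and 874 CPM, 1.87-fold higher (1.66 to 2.13). Cathepsin H, an aminopeptidase, had 633 and 336 CPM and was 1.88-fold lower, the opposite direction to Ctsb, Ctsd and Ctsl. Cathepsin S, which trims the invariant chain of MHC class II, had 1340 and 1591 CPM, and cathepsin C, which activates granule proteases, 836 and 1101 CPM. Ctsa had 184 and 248 CPM and Tpp1, a tripeptidyl peptidase, 79.6 and 76.3 CPM. Cathepsin K, the collagen-degrading protease of osteoclasts, had 1 UMI in the uninjured and 209 in the injured cells, a ratio of 5.96 (1.06 to 237). It was not called, because its 1 UMI was raised to 3 for the call. Injured tenocyte-like cells had 18.6 times as much Ctsk.

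Among the glycosidases, alpha-galactosidase A (Gla) had 1 UMI in the uninjured cells and 1057 in the injured ones, 1.81 and 54.5 CPM, a ratio of 30.2 (5.40 to 1192). Beta-galactosidase (Glb1) had 28.9 and 13.1 CPM, 2.21-fold lower (1.24 to 3.66), and Man2b1, a mannosidase, 147 and 76.0 CPM, 1.93-fold lower (1.52 to 2.41). The hexosaminidase subunit Hexa had 382 and 297 CPM and beta-glucuronidase, Gusb, 94.1 and 142 CPM. The 5 genes thus lay on both sides of equal levels.

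Of the genes of lipid handling, only the cholesterol exporter Npc1 passed 2-fold, at 30.7 and 72.2 CPM, 2.35-fold higher (1.46 to 4.04). Its soluble partner Npc2 had 854 and 962 CPM. Psap had 2536 and 2467 CPM, 1.03-fold lower (0.974 to 1.08), and progranulin, Grn, 684 and 681 CPM, 1.00-fold (0.905 to 1.11). The acid lipase Lipa had 88.6 and 98.4 CPM and the acid ceramidase Asah1 134 and 179 CPM. Psap and Grn thus differed least between the libraries in this class.

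Of the membrane proteins, macrosialin (Cd68), a standard marker of macrophages, had 329 and 856 CPM, 2.60-fold higher (2.25 to 3.03). The major membrane glycoproteins Lamp1 and Lamp2 had 449 and 339 CPM and 295 and 237 CPM. Laptm5, a lysosomal protein of blood cells, had 714 and 418 CPM, 1.71-fold lower (1.54 to 1.89). Scarb2, the receptor that carries glucocerebrosidase to lysosomes, had 52.5 and 61.8 CPM and Mcoln1 16.3 and 9.44 CPM, and the intervals of both ratios held 1. Cd68 was thus higher where Lamp1, Lamp2 and Laptm5 were somewhat lower.

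Of the V-ATPase subunits 1 of 6 passed 2-fold. Atp6v1c1, of the cytosolic part, had 43.4 and 159 CPM, 3.66-fold higher (2.46 to 5.73). Atp6v1a had 74.2 and 140 CPM, Atp6v1h 38.0 and 71.3 CPM and Atp6v1b2 99.5 and 159 CPM, with ratios between 1.60 and 1.89 whose intervals lay above 1. The membrane subunit Atp6v0d2 had 7.24 and 4.23 CPM. The proton pore subunit Atp6v0c had 0 UMIs in the uninjured cells, which allows up to 5.43 CPM, and 3.04 CPM in the injured ones, so no ratio is given. Atp6v0c had few UMIs in every class, at most 6.65 CPM, although the pump needs this subunit, and whether the counting missed its transcripts was not tested.

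**Figure D2:**
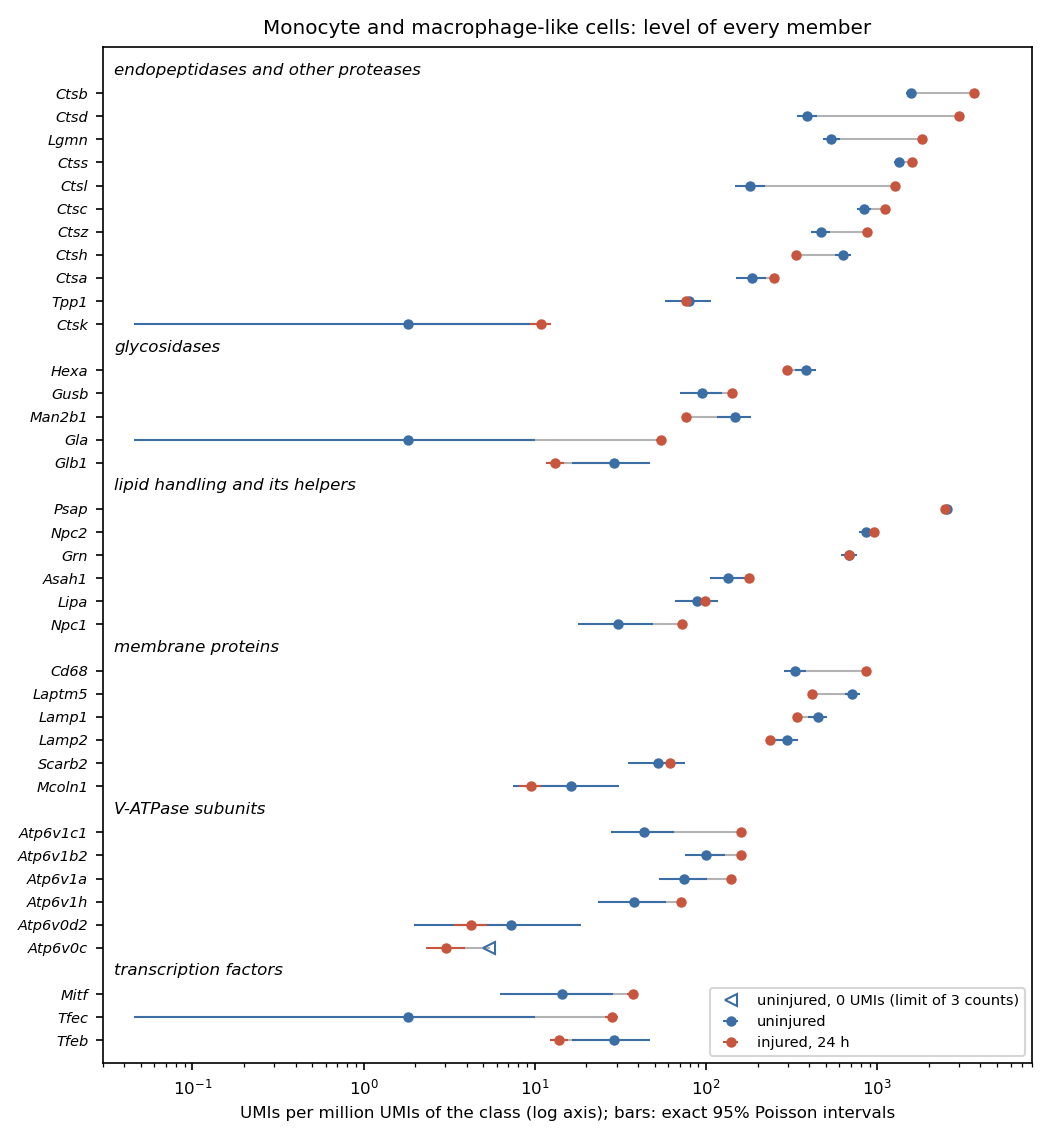
Level of each member in monocyte and macrophage-like cells (x axis, CPM on a log axis; bars, exact 95% Poisson intervals), grouped by role, uninjured in blue and injured in red. The widest gaps between libraries are those of Gla, Tfec, Ctsd and Ctsl, while Psap, Grn and Tpp1 nearly coincide.

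The cells behind this comparison differed between the libraries. Of the 133 uninjured cells, 117 lay in cluster 18, led by Retnla, Fcrls, Mgl2 and Folr2, and 13 in cluster 5, led by Hp, Ifitm6 and Ly6c2. Injured cells lay mainly in clusters 2, 4, 5, 13 and 7-1, with 801, 751, 510, 303 and 169 cells. The members had no part in making the clusters. RNA of other cell types also differed: the 12 endothelial markers, all detected in both libraries, summed to 1671 CPM in the uninjured and 104 CPM in the injured cells of the class. The 10 muscle fibre markers summed to 655 and 141 CPM, and the 9 neutrophil markers to 25.3 CPM (3 detected) and 173 CPM (9 detected). Their part in the result was not tested.

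Cluster 18 was the 1 myeloid cluster with over 40 cells in each library, 117 and 47, so it was compared on its own, a choice made after the data were seen. Its cells still differed between libraries: Retnla had 17263 and 253 CPM, and the MHC class II gene H2-Ab1 8167 and 484 CPM. There the members made up 1.37% (1.34 to 1.40) of uninjured and 2.15% of injured UMIs. Ctsd had 428 and 1683 CPM, 3.93-fold higher (3.37 to 4.61), and Ctsl 188 and 834 CPM, 4.45-fold higher (3.53 to 5.65). Lgmn had 589 and 2377 CPM, 4.03-fold higher (3.54 to 4.61), and Ctsb 1643 and 5462 CPM, 3.32-fold higher (3.07 to 3.61). Cd68 was 3.87-fold higher (3.25 to 4.63). Laptm5 was 2.66-fold lower (2.14 to 3.33), and so was Ctsh, by 2.30-fold (1.86 to 2.86). Psap, with 2567 and 1669 CPM, was 1.54-fold lower (1.40 to 1.69), whereas Grn, with 737 and 1056 CPM, was 1.43-fold higher (1.25 to 1.65). In this cluster 9 of the 32 members measured were at least 2-fold higher (15.7% of the 4720 genes measured there were) and 2 lower (14% of all genes were). Their median log2 ratio was 0.54, against 0.14 for all genes. Glb1, lower in the whole class, had 32.3 and 33.4 CPM here. The ratio of Tfeb, 1.38-fold lower, had an interval that held 1 (0.528 to 3.83).

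Within the injured library the members separated cluster 5 from the other large clusters. Cluster 5, led by Hp, Ifitm6, Ly6c2 (a marker of inflammatory monocytes) and Plac8, had a member share of 1.36% (1.35 to 1.37). Clusters 2 (led by Cxcl3, Arg1 and Il1a), 4 (Chil3, Fcgr1 and Ccl12), 13 (Ppbp, Ccl12 and Pf4) and 7-1 (Cd74 and MHC class II genes) had between 1.98% and 2.48%. Over these 5 clusters Lgmn ranged from 476 CPM in cluster 5 to 2620 CPM in cluster 13, a ratio of 5.51. Ctsd ranged from 817 to 3869 CPM and Ctsb from 1247 to 5156 CPM, again from cluster 5 to cluster 13. Grn had 262 CPM in cluster 5 and 920 CPM in cluster 13, and Tpp1 36.8 and 106 CPM. Lipa was highest in cluster 7-1, at 222 CPM, and lowest in cluster 5, at 34.8 CPM. Ctsl was lowest in cluster 7-1, at 515 CPM, and highest in cluster 13, at 1815 CPM.

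Some members had their highest level in cluster 5. They were Man2b1, 123 CPM there and 49.1 CPM in cluster 13, Ctsh, 431 and 294 CPM, Lamp2, 320 CPM against 163 CPM in cluster 7-1, and Laptm5, 556 CPM against 351 CPM in cluster 2. Ctss varied by 1.32-fold over the 5 clusters and Npc2 by 1.29-fold. The dendritic-like cluster 7-2 and the unnamed clusters 7-3 and 7-4, led by antigen-presentation and lymphoid genes, had member shares of 0.777%, 1.12% and 0.702%.

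**Figure D3:**
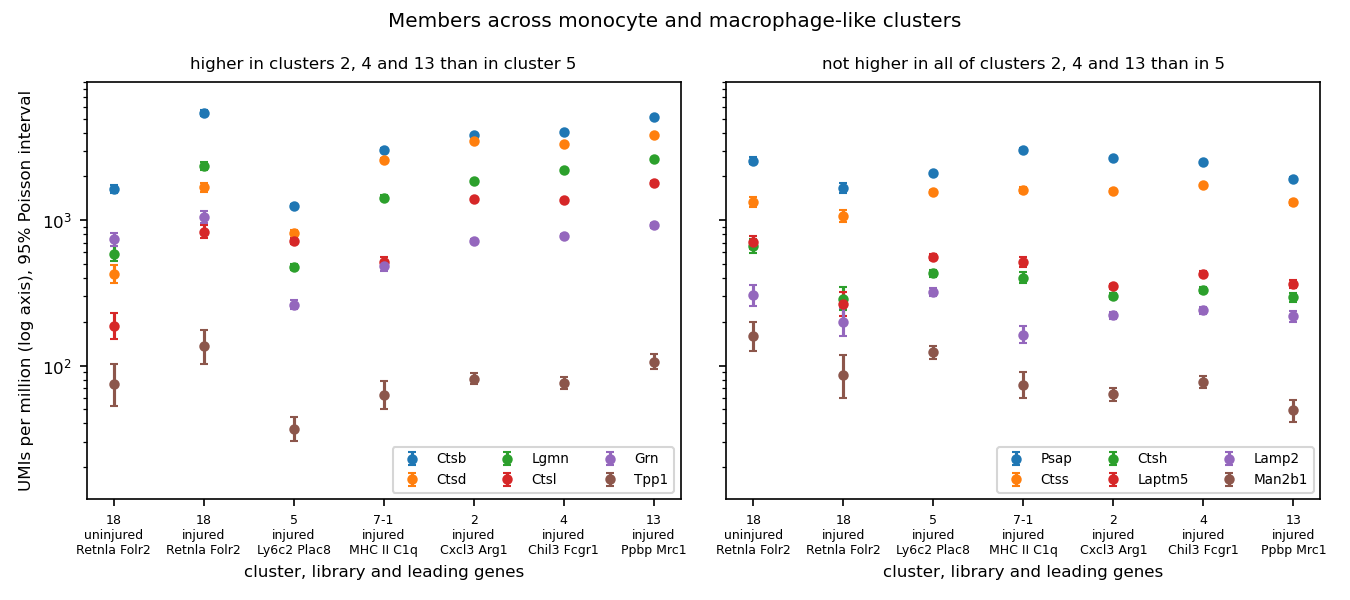
Levels of 12 members (y axis, CPM on a log axis, with 95% Poisson intervals) in 6 monocyte and macrophage-like clusters, with cluster 18 shown for each library. Ctsb, Ctsd and Lgmn lay lowest among the injured clusters in cluster 5, while Ctsh, Laptm5, Lamp2 and Man2b1 did not.

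In fibro-adipogenic progenitor-like cells 17 members were lower after injury, most of them hydrolases and genes of lipid handling. Of the 37 members 34 had at least 20 UMIs, and 17 of them were at least 2-fold lower (28.9% of the 11393 genes measured were) and 3 higher (15.1% of all genes were). The members' median log2 ratio was -0.97, against -0.29 for all genes. Relative to that shift 11 were lower and 4 higher, counts to which the shares of all genes above do not apply. By role, 6 of 11 proteases, 3 of 5 glycosidases, 4 of 6 genes of lipid handling, 2 of 6 membrane proteins and both measured transcription factors were lower, and 0 of 4 V-ATPase subunits.

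Man2b1 had 35.9 CPM in uninjured and 6.53 CPM in injured cells, 5.50-fold lower (3.86 to 7.98). Psap had 744 and 158 CPM, 4.71-fold lower (4.38 to 5.07), and Grn 245 and 52.8 CPM, 4.63-fold lower (4.08 to 5.26). Hexa had 211 and 47.2 CPM, 4.47-fold lower (3.91 to 5.13). Ctsk, a collagen-degrading protease that these cells shared with tenocyte-like cells, had 285 and 74.2 CPM, 3.83-fold lower (3.44 to 4.28). Lamp1 had 315 and 96.7 CPM, 3.26-fold lower (2.95 to 3.60). Mitf is described with the other transcription factors. The remaining lower members ranged from Ctsd at 2.17-fold to Ctsa at 3.10-fold, and were Ctsa, Ctsh, Glb1, Lamp2, Tpp1, Ctsl, Asah1, Npc2, Ctsd and Tfeb. Ctsl nevertheless remained the member with the highest level in the injured cells, 466 CPM after 1104 CPM. V-ATPase subunits lay near equal levels, from 1.39-fold lower for Atp6v1b2 to 1.33-fold higher for Atp6v1h.

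The members that were higher in these cells are abundant in macrophages. Ctss had 3 uninjured UMIs and 21.6 CPM in injured cells, a ratio of 24.8 (8.31 to 122). Ctsc had 6.09 and 21.6 CPM, 3.54-fold higher (2.23 to 5.90), and Laptm5 2.32 and 7.44 CPM, 3.21-fold higher (1.51 to 7.85). Each of the 3 had more than 10 times this level in some other injured class. The 14 macrophage-only genes, none of them a member, summed to 60.3 CPM in the uninjured (11 detected) and 369 CPM in the injured cells (14 detected), as much as 0.241% and 1.34% of macrophage RNA would give. With that RNA subtracted, 0 members were at least 2-fold higher, 18 were lower and the median was -1.28.

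Cluster 11 held 403 of the 418 injured cells, whereas nearly all uninjured cells lay in clusters 8, 16, 27 and 30. The 13 markers that named the class summed to 69590 CPM in uninjured and 10853 CPM in injured cells, all detected in both. Injured cells held a median of 13942 UMIs and uninjured ones 3900. Whether the lower lysosomal levels go with these differences was not tested.

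In tenocyte-like cells the pattern was much alike, with fewer members past 2-fold. Of 32 members measured, 12 were at least 2-fold lower (20.9% of the 9690 genes measured were) and 4 higher (9.8% of all genes were). The median log2 ratio was -0.68, against -0.21 for all genes. Relative to that shift 9 were lower and 4 higher, again without a share of all genes. Hexa had 305 and 56.2 CPM, 5.43-fold lower (4.46 to 6.66). Grn had 352 and 117 CPM, lower by a ratio with interval 2.60 to 3.48, and Psap 792 and 264 CPM, with interval 2.73 to 3.30. Ctsh was 2.78-fold lower (2.27 to 3.40) at 175 and 62.9 CPM, Ctsa 2.69-fold lower (2.13 to 3.43) at 123 and 45.6 CPM and Lamp1 2.68-fold lower (2.28 to 3.16) at 258 and 96.1 CPM. Ctsk, Man2b1, Npc2 and Glb1 were lower by 2.23-fold to 2.53-fold. Ctsk, at 509 and 201 CPM, was in both libraries highest in this class. Ctsd, at 721 and 453 CPM, and Ctsl, at 1388 and 749 CPM, stayed within 2-fold.

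Legumain was higher in these cells, with 15.2 and 103 CPM, 6.77-fold (4.74 to 9.92). Ctsc had 2.53 and 14.4 CPM, 5.69-fold higher (2.33 to 16.7), and Cd68 6.33 and 16.8 CPM, 2.66-fold higher (1.41 to 5.24). Ctss had 1 uninjured UMI and 32.2 CPM in injured cells, a ratio of 76.3 (13.2 to 3058). In the injured library each of the 4 had a class with over 10 times its level here. Macrophage-only genes summed to 35.4 CPM (10 of 14 detected) and 349 CPM (14 of 14), as 0.142% and 1.27% of macrophage RNA would give. With that RNA subtracted 2 members were at least 2-fold higher, Lgmn with a log2 ratio of 2.48 and Ctss with 3.26, while Ctsc was at 0 and Cd68 at 0.04. Cluster 17 held 164 of the 165 injured cells, and clusters 14 and 19 held 284 and 158 of the 446 uninjured ones. With cells thinned to 1000 UMIs, 7 members were lower and 1 higher. Whether any of these differences bears on the lower levels was not tested.

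In endothelial-like cells the members lay close to all other genes. Of 34 measured, 5 were at least 2-fold higher (10.6% of the 11239 genes measured were) and 3 lower (20.3% of all genes were), with a median log2 ratio of -0.19 against -0.20 for all genes. Relative to that shift 5 were higher and 2 lower, without a share of all genes. Psap had 776 and 291 CPM, 2.66-fold lower (2.50 to 2.84). Lgmn had 58.4 and 166 CPM, 2.84-fold higher (2.52 to 3.19). Ctss, with 1.52 and 23.4 CPM, was 15.4-fold higher (8.66 to 29.3). Laptm5, with 1.52 and 11.4 CPM, was 7.49-fold higher, Ctsc, with 4.57 and 15.9 CPM, 3.47-fold (2.29 to 5.30), and Cd68, with 9.68 and 22.0 CPM, 2.27-fold (1.66 to 3.11). Ctsk had 3.48 and 1.67 CPM, and the interval of its ratio held 1 (0.860 to 6.10). No glycosidase and no V-ATPase subunit passed 2-fold here.

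For all 5 members higher in endothelial-like cells, some other injured class had more than 10 times the level. Macrophage-only genes summed to 27.5 CPM (11 of 14 detected) and 373 CPM (14 of 14), as 0.110% and 1.35% of macrophage RNA would give. With it subtracted 2 members stayed at least 2-fold higher, Lgmn with a log2 ratio of 1.30 and Laptm5 with 2.98, and Ctsc turned to -1.89. Of the 456 injured cells 344 were in cluster 12, which held 32 of the 2666 uninjured cells. The part of macrophage RNA and of the clusters in these ratios was not tested beyond that subtraction.

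**Figure D4:**
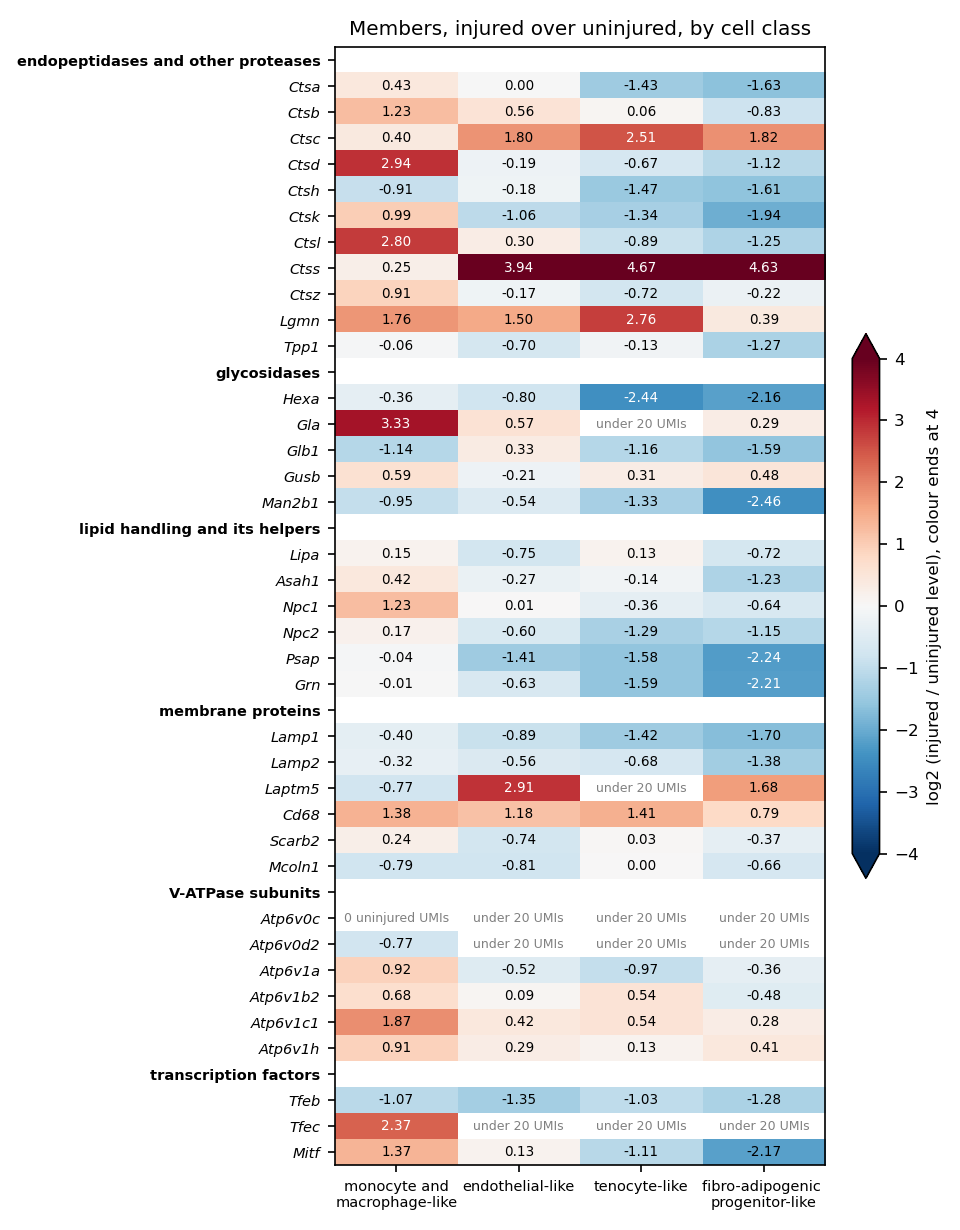
Log2 ratio of injured over uninjured level for each member (rows, by role) in 4 cell classes (columns), red where higher and blue where lower, with colours ending at 4 and the values printed. A count under 3 UMIs was raised to 3 for these values; Tfeb is blue in all 4 columns and Ctsd and Ctsl are red in monocyte and macrophage-like cells and blue in the fibro-adipogenic progenitor-like ones.

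Set side by side, 3 members passed 2-fold in opposite directions in different classes. Ctsd was 7.65-fold higher in monocyte and macrophage-like cells and 2.17-fold lower in fibro-adipogenic progenitor-like cells, and Ctsl 6.97-fold higher and 2.37-fold lower. The third was Mitf, described next. Scaled to the median of all genes, the log2 ratios in fibro-adipogenic progenitor-like cells were -0.83 for Ctsd and -0.96 for Ctsl, under 2-fold. Psap and Grn, within 1.03-fold of equal levels in monocyte and macrophage-like cells, were 4.71-fold and 4.63-fold lower in fibro-adipogenic progenitor-like cells. With 1 library per condition these differences between classes were not tested. No member was at least 2-fold higher in all 4 classes, and 8 measured in all 4 passed 2-fold in none: Ctsz, Lipa, Gusb, Scarb2, Mcoln1, Atp6v1a, Atp6v1b2 and Atp6v1h. Atp6v0c and Atp6v0d2 had enough UMIs in monocyte and macrophage-like cells alone and were not called there. The share of all genes with these patterns across classes is not given, so these counts stand without a background.

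The 3 transcription factors had unlike patterns. Tfeb (ENSMUSG00000023990, chromosome 17, 47737030 to 47792419) was lower after injury in each of the 4 classes. It had 28.9 and 13.8 CPM in monocyte and macrophage-like cells, 2.09-fold lower (1.18 to 3.46), and 20.3 and 8.35 CPM in fibro-adipogenic progenitor-like cells, 2.43-fold lower (1.68 to 3.52). In endothelial-like cells it had 27.6 and 10.9 CPM, 2.55-fold lower (1.81 to 3.66), and in tenocyte-like cells 27.4 and 13.5 CPM, 2.04-fold lower (1.29 to 3.30). Scaled to the median of all genes the log2 ratios were -0.89, -0.99, -1.15 and -0.82, so that only the endothelial one still passed 2-fold. In tenocyte-like cells thinned to 1000 UMIs it was at 0. Of all genes measured, 24%, 28.9%, 20.3% and 20.9% were at least 2-fold lower in these classes in the same order. The share of all genes lower in all 4 is not given. Among uninjured classes Tfeb was highest in the 51 lymphatic endothelial-like cells, 82.7 CPM (51.9 to 125), above the interval of the next class.

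Mitf (ENSMUSG00000035158, chromosome 6, 97807052 to 98021349) had 14.5 and 37.4 CPM in monocyte and macrophage-like cells, 2.58-fold higher (1.30 to 6.00). It had 27.2 and 6.07 CPM in fibro-adipogenic progenitor-like cells, 4.49-fold lower (3.07 to 6.67), and 29.1 and 13.5 CPM in tenocyte-like cells, 2.16-fold lower (1.38 to 3.49). In endothelial-like cells it was low in both libraries, at 2.28 and 2.51 CPM. Tfec (ENSMUSG00000029553, chromosome 6, 16833373 to 16898441), the relative whose expression is largely limited to macrophages, had 1 UMI in uninjured and 544 UMIs in injured monocyte and macrophage-like cells, a ratio of 15.5 (2.77 to 614). It had at most 3 UMIs in fibro-adipogenic progenitor-like, endothelial-like and tenocyte-like cells of either library. In the injured neutrophil-like cluster, with its macrophage-only genes as given above, Tfec had 18.3 CPM (9.13 to 32.7) and Mitf 38.2 CPM (24.2 to 57.4).

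Across classes, 22 members before and 26 after injury had their highest level in monocyte and macrophage-like cells, 15 and 13 of them with an interval apart from that of the next class. In uninjured muscle Ctss was 319 times its next level and Ctsc 12.4 times. The next level of Ctss was only 4.20 CPM, in glial-like cells, so that ratio rests on few UMIs. These counts rest on 8 uninjured and 7 injured classes, and the share of all genes highest in this class is not given. The neutrophil-like and dendritic-like classes had enough cells in the injured library only, so the 22 and 26 are not counts over the same classes. In injured muscle the next class was most often the neutrophil-like cluster, in which the macrophage-only genes summed to 22583 CPM. The part of macrophage RNA in its levels was not tested. Where monocyte and macrophage-like cells led in both libraries, ratios to the next class were smaller with the added neutrophil-like and dendritic-like classes. For Ctsb the ratio was 2.24 in uninjured and 1.42 in injured muscle, and for Psap 3.20 and 1.32. Other classes led for some members: Ctsd, Ctsl and Ctsk were highest in uninjured tenocyte-like cells, and Scarb2, at 128 CPM, in uninjured glial-like cells. Ctsh, at 853 CPM, and Laptm5, at 709 CPM, were highest in injured dendritic-like cells.

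The counts were also made for a further list of 94 lysosome-related genes, and the parts of that list were not tested against each other. In fibro-adipogenic progenitor-like cells 26 of 33 further hydrolases were lower by 2-fold or more and 0 higher (median log2 ratio -1.68), where 28.9% of all genes were lower. In tenocyte-like cells 21 of 30 measured were lower and 0 higher (median -1.54), where 20.9% of all genes were lower. In endothelial-like cells 10 of 31 were lower and 1 higher, and in monocyte and macrophage-like cells 9 of 32 lower and 4 higher, with a median of -0.62. The shares of all genes lower in these classes were 20.3% and 24%, so the count in monocyte and macrophage-like cells lay near that of all genes. For the counts higher in this paragraph, the shares of all genes were 15.1% in fibro-adipogenic progenitor-like and 9.8% in tenocyte-like cells. They were 10.6% in endothelial-like and 8.48% in monocyte and macrophage-like cells. Further membrane proteins were lower for 8 of 18 and higher for 0 in fibro-adipogenic progenitor-like cells, 5 and 0 of 17 in tenocyte-like, 4 and 2 of 18 in endothelial-like and 4 and 5 of 18 in monocyte and macrophage-like cells. Sorting genes, which carry enzymes to lysosomes, were lower for 2 of 8, 1 of 7, 0 of 8 and 1 of 9 in that order, and higher for 3 of 9 in monocyte and macrophage-like cells and 0 in the others. Of 12 further V-ATPase genes 3, 0, 0 and 1 were lower and 0, 1, 0 and 0 higher in these 4 classes in the same order. Rag, Ragulator and folliculin genes, which couple lysosomes to the growth kinase mTOR, were within 2-fold apart from 1 lower of 13 in fibro-adipogenic progenitor-like cells and 1 higher of 13 in monocyte and macrophage-like cells.

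Named genes of that list were as follows. In fibro-adipogenic progenitor-like cells the cathepsin Ctsf was 18.1-fold lower (12.6 to 27.0), the phosphodiesterase Smpdl3a 13.4-fold (10.1 to 18.1) and the cathepsin Ctso 11.4-fold (7.65 to 17.5). In tenocyte-like cells Ctsf was 15.4-fold lower (10.4 to 23.8), the cystatin Cst6 10.5-fold (4.27 to 33.6) and the arylsulfatase Arsb 8.71-fold (4.80 to 17.3), while cystatin B, Cstb, was 2.82-fold higher (2.52 to 3.15) and the V-ATPase gene Tcirg1 2.21-fold higher (1.17 to 4.32). In endothelial-like cells Ctsf was 6.06-fold lower (3.21 to 12.9), the cystatin Cst3 5.75-fold (5.52 to 6.00) and Smpdl3a 4.93-fold (4.08 to 6.01). The tetraspanin Cd63 was 9.90-fold higher (8.90 to 11.0) there, the metal transporter Slc11a1 8.70-fold (3.08 to 30.2), and Stfa2, a stefin, with 0 and 34 UMIs, at least 29.0-fold higher against 3 counts over the class. In the same cells the 9 neutrophil markers summed to 6.75 CPM (6 detected) and 346 CPM (8 detected). The 14 macrophage-only genes summed to 27.5 and 373 CPM. The part of RNA from such cells in these ratios was not tested.

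In monocyte and macrophage-like cells Cstb, an inhibitor of cysteine cathepsins, had 365 and 2910 CPM, 7.96-fold higher (6.94 to 9.19). The acid phosphatase Acp5 had 1 uninjured UMI and a ratio of 17.2 (3.07 to 679), and the folliculin partner Fnip2 was 4.35-fold higher (1.86 to 13.4). Arsb was 19.9-fold lower (11.1 to 34.9), Naaa, an amidase of lipid mediators, 6.55-fold (5.54 to 7.71) and the amino acid sensor Slc38a9 5.21-fold (2.49 to 9.87). Cstb was thus higher in the same class as Ctsb and Ctsl, and whether single cells held more of all of them was not tested.

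Over all cells kept, the members made up 0.449% of UMIs in uninjured and 1.35% in injured muscle, and 22 of 37 were at least 2-fold higher (11.9% of the 14470 genes measured were) and 1, Ctsk, lower (38.7% of all genes were). The median log2 ratio was 1.07, against -0.60 for all genes. Relative to that shift 29 were higher and 1 lower, and the shares of all genes above do not apply to these 2 counts. Cd68 had 17.2 and 494 CPM, Ctss 39.3 and 936 CPM and Lgmn 69.4 and 1056 CPM. Monocyte and macrophage-like cells were 2.59% of the uninjured and 61.5% of the injured cells kept. Ratios over all cells therefore mix levels within cells with the makeup of the libraries.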

How the data were processed

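The authors deposited a table of UMI counts per gene and barcode for each library, made with Cell Ranger 2.1.1 and the mm10 genome per the submitters' processing notes, with an annotation release that those notes do not name. Barcodes with under 200 genes or over 20% mitochondrial UMIs were left out, as were the highest Scrublet scores (0.8% per 1000 barcodes), because the automatic threshold marked 1 uninjured barcode. Cells were clustered (scanpy 1.11.5, leidenalg 0.10.2; 2000 variable genes without the members, 30 components, 15 neighbours, resolution 1, with 4 clusters divided again), and clusters were named from 15 marker lists by a rule set after the data were seen, as was its fold prior of 0.05. The members and lists were chosen with earlier results of these data known. Counts were summed per class and library, and a class was compared where both libraries held 50 cells or more, with glial-like cells given by share and level only. A count under 3 was raised to 3 for calls and medians, and ratios of genes with 1 or 2 UMIs are printed as counted. Intervals are exact Poisson, binomial and conditional binomial ones at 95%. All members are described, and per class up to 10 largest changes past 2-fold and the 3 transcription factors are given with intervals. Further lysosome genes were named as the 3 largest in each direction. The calculation was tested on simulated data. Python 3.11.15 and scipy 1.17.1 were used. Alternatives changed the clustering, naming, doublets, depth, scaling, minimum count and macrophage RNA.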

Additional observations from a re-analysis of the deposited data

How the results depend on the processing

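Each single-library ratio lacks a replicate, and counting intervals do not cover differences between animals, dissociation or library preparation. The counts in this section have no share of all genes beside them. With cells assigned by their own marker score, the median log2 ratio in monocyte and macrophage-like cells was -0.0014 and the number at least 2-fold lower 5. With scaling by the median ratio of all genes, 0 were lower in that class, 11 were lower in fibro-adipogenic progenitor-like cells with a median of -0.69, and the median over all cells was 1.66. In fibro-adipogenic progenitor-like cells the median was -0.75 with no doublets left out, -0.72 with members of at least 1 UMI and -1.28 with macrophage RNA subtracted, and that last setting left 0 members higher there, 2 in endothelial-like and 2 in tenocyte-like cells. In cells thinned to 1000 UMIs, 1 member was higher in fibro-adipogenic progenitor-like cells and 1 in tenocyte-like cells, 7 were lower in the latter, and the median over all cells was 1.20. The tenocyte-like median was -0.23 with members of at least 1 UMI. Among single members, 3 log2 ratios changed sign: Glb1 was 0.048 in monocyte and macrophage-like cells of cluster 18, an alternative chosen after seeing the data, Glb1 was 0.54 in thinned tenocyte-like cells, and Ctsc was -1.89 in endothelial-like cells with macrophage RNA subtracted. Beyond the construction of each setting, the cause was not tested. Of the other values of named members, 91 kept their side of 2-fold and 16 came under it in monocyte and macrophage-like cells, 165 and 15 in fibro-adipogenic progenitor-like, 65 and 6 in endothelial-like, 129 and 13 in tenocyte-like cells and 112 and 3 over all cells. Ctss in thinned tenocyte-like cells gave no value, and pericyte and smooth muscle-like cells, 35 in the injured library, were not compared. No paired analysis was possible because each condition had 1 library.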
